A study of Homo sapiens with 6 samples.

Results

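Messenger RNA levels of 10 genes of the cleavage and polyadenylation complex were followed in HMCB melanoma cells with and without an siRNA against AHCYL1. The members are CPSF1, CPSF2, CPSF3, CPSF4 and FIP1L1 of the cleavage and polyadenylation specificity factor (CPSF), CSTF1, CSTF2 and CSTF3 of the cleavage stimulation factor (CSTF), and NUDT21 and CPSF6 of cleavage factor I. They were chosen by name, as subunits of these factors, at a time when earlier results of these libraries were known. All 10 were found among the 26902 gene rows of the deposited table. HMCB is a human melanoma line whose genotype is labelled NRAS Q61K, an activating RAS mutation that both groups share. The control group (siNC, 3 libraries) received a control siRNA and the other group (siAHCYL1, 3 libraries) an siRNA against AHCYL1, each for 3 days before RNA was taken. The replicates are labelled biological but no separate cultures are named, and a p-value here speaks of the spread among these 6 libraries, some of which may be technical. The siRNA sequences and the number of siRNAs per target were not given in the sources used here, and 1 cell line was used.

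Almost every messenger RNA is cut at its end and given a poly(A) tail by this complex. CPSF recognises the poly(A) signal (AAUAAA in RNA, AATAAA in DNA letters) and makes the cut, CSTF holds the GU-rich element downstream of the cut, and cleavage factor I binds UGUA elements upstream and helps to choose among alternative sites. AHCYL1, also called IRBIT, is known to bind FIP1L1, the CPSF subunit that contacts both RNA and poly(A) polymerase, which makes this complex one of the known partners of the targeted protein.

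The siRNA target was checked first. AHCYL1 stood at 150.02, 134.05 and 131.09 TPM (a level per transcript length, as a share of the library) in the controls and at 13.45, 11.13 and 10.97 TPM after its siRNA, 8.56% of the control mean (log2 fold change -3.44, limma adjusted p = 5.64e-08). The labelled cell type was checked against its markers: SOX10, a neural crest and melanocyte factor, averaged 1037 TPM in the controls and MITF, the melanocyte master regulator, 10.99 TPM, whereas TYR, tyrosinase, was listed at 0 in all 6 libraries. Means of at least 1 TPM were found for 4 of 8 epithelial, 2 of 6 fibroblast, 2 of 7 immune and blood and 1 of 5 endothelial markers. Summed over each list, the fibroblast markers ranged from 15.4 to 17.9 TPM in the controls and from 26.1 to 32.4 TPM after the AHCYL1 siRNA, and the endothelial markers from 8.81 to 11.2 and from 6.29 to 7.19 TPM. The expressed fibroblast markers went opposite ways: LUM, a proteoglycan, rose from 14.0 ± 1.33 to 28.96 ± 3.38 TPM (adjusted p = 8.82e-05) and COL1A1, a collagen chain, fell from 2.18 ± 0.47 to 0.49 ± 0.25 TPM (adjusted p = 0.00191). The epithelial and the immune sums overlapped between groups, but single markers within each list went opposite ways. Among the immune and blood markers, mean PTPRC rose from 3.447 to 8.553 TPM (limma adjusted p = 0.000394). HBA1 fell from 18.04 to 6.347 TPM (adjusted p = 0.00749). Among the epithelial markers, KRT8 rose from 0.87 to 2.413 TPM (adjusted p = 0.0114). CLDN4 (22.34 to 13.9 TPM, adjusted p = 0.00387) and KRT18 (17.54 to 14.31 TPM, adjusted p = 0.0442) fell, and KRT10 did not pass. COL1A2, COL3A1, PDGFRA, CD3E, EPCAM, PECAM1 and VWF were below 0.5 TPM in every library. The part of these markers in the results was not tested. The TPM values keep no sequencing depth, so the precision that depth gives is unknown.

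The sequence that the complex reads is present in its own messages. Poly(A) signals were searched in the last 40 bases of the principal transcript of each gene in GENCODE release 29 (GRCh38). The hexamer AATAAA was found in 8 members and ATTAAA, the commonest variant, in 1 member, CPSF4. CPSF1 had neither. Among 11969 tested genes searched in the same way, 61.5% had AATAAA, 14.5% had ATTAAA without it and 24.0% had neither. The sites of the 3 members with a signal that changed, of FIP1L1, and of CSTF2T, the paralog of CSTF2, are shown from 5′ to 3′ in DNA letters, with the hexamer in capitals:
CPSF4, chr7:99457343-99457371, plus strand: tttatgaaatggATTAAAgcttgtttttt
CSTF2, chrX:100840889-100840918, plus strand: tctgtgacttgaAATAAActttgaacacaa
CSTF3, chr11:33084586-33084615, minus strand: agtcctttaaaaAATAAAaggattcagaaa
FIP1L1, chr4:53459633-53459662, plus strand: tactatttcaaaAATAAAaagacagcaatg
CSTF2T, chr10:51695491-51695520, minus strand: tttcatgcagaaAATAAAgatacaattaag
CPSF4 and CSTF2 fell and carry different hexamers, while CSTF2 and CSTF3 share AATAAA and went opposite ways. Over all genes, 22.7% of those with AATAAA, 21.7% of those with ATTAAA and 22.2% of those with neither were lower after the AHCYL1 siRNA. The shares that were higher were 30.3%, 30.1% and 30.1%. These signals belong to annotated transcript ends, which may not be the ends used in these cells. The part of the signal in the changes was not tested.

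Across the 10 members, 4 changed: CPSF1 and CSTF3 rose, and CPSF4 and CSTF2 fell. A change means an adjusted p under 0.05 in limma on log2(TPM + 1), over the 13266 genes that reached 1 TPM in 3 or more libraries. All 10 members passed that filter. The 4 of 10 members called stood beside 51.6% of all genes tested, with 30.4% of all genes called higher and 21.2% called lower. The groups did not overlap in 5 of 10 members, against 59.2% of all genes. The median log2 fold change was 0.05 over the members and 0.06 over all genes. The log2 fold changes of the members ran from -0.51 (CSTF2) to 0.44 (CSTF3). Across all genes 58.9% of calls were higher, and 50.8% and 48.1% under median-of-ratios scaling and quantile normalization. The median over the members then became -0.02 and -0.06, and the 4 calls kept their directions. In bulk RNA, fewer cells with a transcript and less of it per cell cannot be told apart.

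**Figure D1:**
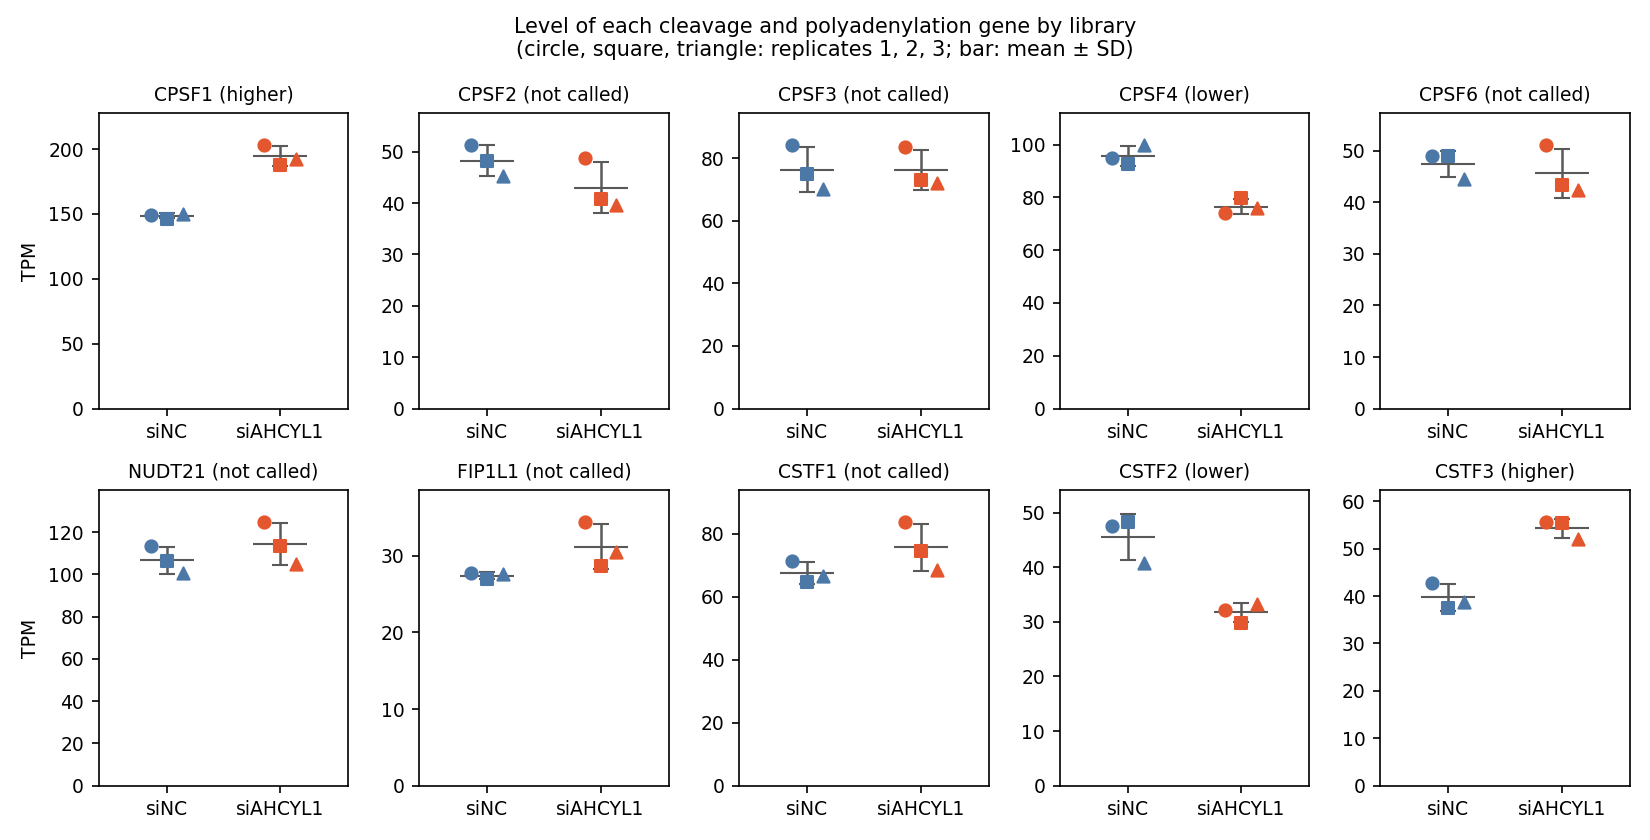
TPM (vertical axes, from 0) of the 10 members in each library, siNC in blue and siAHCYL1 in red, with replicates 1, 2 and 3 as circles, squares and triangles and the mean ± SD as bars. CPSF1 and CSTF3 sit higher and CPSF4 and CSTF2 lower in all 3 siAHCYL1 libraries, and FIP1L1 sits slightly higher without passing the test.

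The recognition arm of CPSF went both ways. CPSF1, the scaffold on which the other subunits assemble, had 149.50, 146.41 and 149.79 TPM in the controls and 203.14, 187.92 and 192.15 TPM after the AHCYL1 siRNA. Every siAHCYL1 library lay above every control library, and the mean rose 1.31-fold, from 149 ± 1.87 to 194 ± 7.86 TPM (SD, n = 3; log2 fold change 0.38, SE 0.058, limma adjusted p = 0.000535). The CPSF1 gene (chromosome 8, 144393229 to 144409349, minus strand, GENCODE 29 on GRCh38) overlaps ADCK5 on the other strand. ADCK5 also rose, with means of 35.0 ± 4.61 and 46.3 ± 5.08 TPM (log2 fold change 0.40, adjusted p = 0.0176). The library protocol does not keep strand, so reads from the shared stretch cannot be told apart, and their part in the rise of CPSF1 was not tested.

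CPSF4, the zinc finger subunit that contacts the AATAAA hexamer together with WDR33, had 94.80, 92.61 and 99.85 TPM in the controls and 74.05, 79.73 and 75.79 TPM after the AHCYL1 siRNA. The groups were separate, and the mean fell by 20.1%, from 95.8 ± 3.71 to 76.5 ± 2.91 TPM (log2 fold change -0.32 with an SE of 0.065, adjusted p = 0.00294). Its signal, ATTAAA, is shown above. The CPSF4 gene (chromosome 7, 99438922 to 99457371, plus strand) overlaps PTCD1 and ATP5J2 on the other strand. Neither passed the test: PTCD1 had 21.6 ± 1.08 against 24.0 ± 0.87 TPM (adjusted p = 0.157) and ATP5J2 had 939 ± 113 against 887 ± 168 TPM (adjusted p = 0.595). ATP5J2 stood far above CPSF4, and reads from shared stretches cannot be told apart here either. Their part in the fall of CPSF4 was not tested. WDR33, the partner of CPSF4 in reading the hexamer, had 27.84, 26.55 and 26.38 TPM against 26.60, 25.47 and 27.04 TPM. Its log2 fold change was -0.03, with a 95% confidence interval from -0.20 to 0.15 (adjusted p = 0.777), so a change like that of CPSF4 lay outside the interval of WDR33.

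FIP1L1, the known AHCYL1 partner, had 27.75, 26.92 and 27.57 TPM in the controls and 34.40, 28.62 and 30.49 TPM after the AHCYL1 siRNA. The groups did not overlap, but the siAHCYL1 libraries were spread widely (27.4 ± 0.44 against 31.2 ± 2.95 TPM). The test was not passed (log2 fold change 0.18, 95% confidence interval -0.02 to 0.37, adjusted p = 0.124), nor was it in any of 14 refits (adjusted p from 0.0669 to 0.302). FIP1L1 (chromosome 4, 53377643 to 53460861, plus strand) was the member with the lowest mean level in both groups, above 56.0% of tested genes. It overlaps LNX1, which stood between 0.92 and 1.56 TPM.

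The cutting arm of CPSF showed no change past the test among its members. CPSF3 (chromosome 2, 9423568 to 9473101, plus strand), the endonuclease that makes the cut, had 84.20, 74.79 and 70.04 TPM against 83.54, 73.01 and 72.00 TPM. Its means were 76.3 ± 7.21 and 76.2 ± 6.39 TPM, and the 95% confidence interval of the log2 fold change ran from -0.20 to 0.20 (adjusted p = 0.986). CPSF2 (chromosome 14, 92121937 to 92172145, plus strand), its inactive paralog and partner, had 51.33, 48.25 and 45.28 TPM against 48.70, 40.73 and 39.60 TPM, with overlapping groups (log2 fold change -0.17, interval -0.38 to 0.05, adjusted p = 0.168). CPSF2 passed the test as lower under median-of-ratios scaling (-0.23, adjusted p = 0.0266), under quantile normalization (-0.27, adjusted p = 0.0137), without siAHCYL1 replicate 1 (-0.26, adjusted p = 0.0258) and once replicate 1 of each group was left out (-0.21, adjusted p = 0.0369). SYMPK, symplekin, the scaffold that holds the cutting arm and is no member here, rose 1.39-fold, with means of 64.4 ± 2.03 and 89.6 ± 2.18 TPM (log2 fold change 0.47, adjusted p = 0.000263).

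Among the CSTF subunits, CSTF3 rose, CSTF2 fell and CSTF1 did not pass, beside 30.4% of all genes called higher and 21.2% called lower. CSTF2, the subunit whose RNA recognition motif binds the downstream GU-rich element, had 47.62, 48.29 and 40.76 TPM in the controls and 32.14, 29.73 and 33.29 TPM after the AHCYL1 siRNA. All siAHCYL1 libraries were below all controls, and the mean fell by 30.4%, from 45.6 ± 4.17 to 31.7 ± 1.82 TPM (log2 fold change -0.51 with an SE of 0.090, adjusted p = 0.00135). CSTF3, the dimeric scaffold that joins the other CSTF subunits, had 42.86, 37.45 and 38.83 TPM in the controls and 55.63, 55.38 and 52.03 TPM after the AHCYL1 siRNA. It rose 1.37-fold, from 39.7 ± 2.81 to 54.4 ± 2.01 TPM (0.44, SE 0.078, adjusted p = 0.00122), again with no overlap between the groups. CSTF1 (chromosome 20, 56392371 to 56406369, plus strand), the WD-repeat subunit, had 71.37, 64.67 and 66.49 TPM against 83.67, 74.57 and 68.57 TPM and overlapped (0.16, interval -0.03 to 0.35, adjusted p = 0.15).

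No annotated gene that overlaps CSTF2 (chromosome X, 100820359 to 100840932, plus strand) reached a mean of 1 TPM. CSTF3 (chromosome 11, 33077188 to 33162371, minus strand) overlaps LINC00294 and TCP11L1 on the other strand, and both moved against it. LINC00294, a noncoding RNA, fell from 13.5 ± 1.29 to 8.03 ± 1.26 TPM (log2 fold change -0.69, adjusted p = 0.00193). TCP11L1 fell from 16.7 ± 0.96 to 11.2 ± 0.36 TPM (-0.53, adjusted p = 0.00136). Without strand, reads from the stretches shared with CSTF3 cannot be told apart. Their part in the values of these 3 genes was not tested.

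The promoters of CSTF2 and CSTF3 are shown because these subunits of 1 factor moved in opposite directions. They are RefSeq sequences on GRCh38.p14, from 250 bases before to 50 after the annotated start, written 5′ to 3′ on the gene's strand. Capitals mark matches, on either strand, to CCAAT (the NF-Y box), GGGCGG (the GC box bound by SP1), CCGGAAG (a core bound by ETS factors), TATAAA (the TATA box) and TGACGT (the core bound by CREB and ATF factors):
CSTF2, chrX:100820141-100820440, plus strand: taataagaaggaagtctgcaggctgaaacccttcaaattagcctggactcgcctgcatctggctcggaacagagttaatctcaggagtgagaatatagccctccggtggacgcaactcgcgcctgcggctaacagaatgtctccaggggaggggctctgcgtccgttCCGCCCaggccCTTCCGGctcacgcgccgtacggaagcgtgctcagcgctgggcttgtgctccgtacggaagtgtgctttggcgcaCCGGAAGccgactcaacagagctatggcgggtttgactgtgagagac
CSTF3, chr11:33161431-33161730, minus strand: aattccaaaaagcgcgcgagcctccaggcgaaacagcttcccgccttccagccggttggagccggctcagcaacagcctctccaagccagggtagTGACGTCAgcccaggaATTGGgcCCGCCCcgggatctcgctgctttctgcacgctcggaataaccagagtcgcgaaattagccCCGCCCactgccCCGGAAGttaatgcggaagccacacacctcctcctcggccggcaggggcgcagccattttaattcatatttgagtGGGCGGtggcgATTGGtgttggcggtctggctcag
The CSTF2 window holds 1 match to GGGCGG and 2 to CCGGAAG. The CSTF3 window holds 2 matches to CCAAT, 3 to GGGCGG, 1 to CCGGAAG and 2 to TGACGT, the last pair overlapping each other on opposite strands. Matches of different motifs shared no bases in these windows. Of 35116 RefSeq promoters of the same length, 34.6% hold CCAAT, 44.95% GGGCGG, 10.3% CCGGAAG, 11.5% TATAAA and 7.98% TGACGT. That set was not limited to the genes tested here, so its shares are no matched background for the members. Promoters were found for 9 members, all but CPSF1, with 2 windows each for CPSF4 and CSTF1, those of CSTF1 overlapping. Of these 11 windows, 7 hold CCAAT, 7 GGGCGG, 5 CCGGAAG, 3 TGACGT and 0 TATAAA. These matches describe letters and not binding.

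Neither member of cleavage factor I passed the test in any of 14 refits. NUDT21, which binds UGUA, had 113.33, 106.17 and 100.41 TPM against 124.75, 113.45 and 104.71 TPM (log2 fold change 0.10, interval -0.08 to 0.28, adjusted p = 0.34). CPSF6, the larger subunit that pairs with NUDT21, had 48.95, 48.93 and 44.48 TPM against 51.15, 43.40 and 42.37 TPM (-0.06, interval -0.26 to 0.14, adjusted p = 0.615). The groups overlapped for both. NUDT21 (chromosome 16, 56429133 to 56452199, minus strand) overlaps OGFOD1 on the other strand, which had 36.2 ± 4.88 against 42.9 ± 3.51 TPM (adjusted p = 0.0811). CPSF6 lies on chromosome 12 from 69239537 to 69274358, plus strand, with no overlapping gene at a mean of 1 TPM.

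Replicate 1 was the highest library of its group for 7 of 10 members in siNC and for 8 of 10 in siAHCYL1, against 44.9% and 58.0% of all tested genes. The 4 calls held without replicate 1 of either group or of both. CPSF2 joined them without siAHCYL1 replicate 1 and without both, but not without siNC replicate 1 alone (adjusted p = 0.36).

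Per transcript length, the order of the members' mean levels in the controls ran from CPSF1 at 149 TPM through NUDT21 (107), CPSF4 (95.8), CPSF3 (76.3), CSTF1 (67.5), CPSF2 (48.3), CPSF6 (47.5), CSTF2 (45.6) and CSTF3 (39.7) to FIP1L1 at 27.4 TPM. Among neighbours in that order, the libraries overlapped for CPSF3 with CSTF1 and along the run from CPSF2 to CSTF3. After the AHCYL1 siRNA, CSTF3 (54.4) stood above CPSF6 (45.6) and CPSF2 (43.0), and CSTF2 (31.7) came down to FIP1L1 (31.2), with overlapping libraries.

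**Figure D2:**
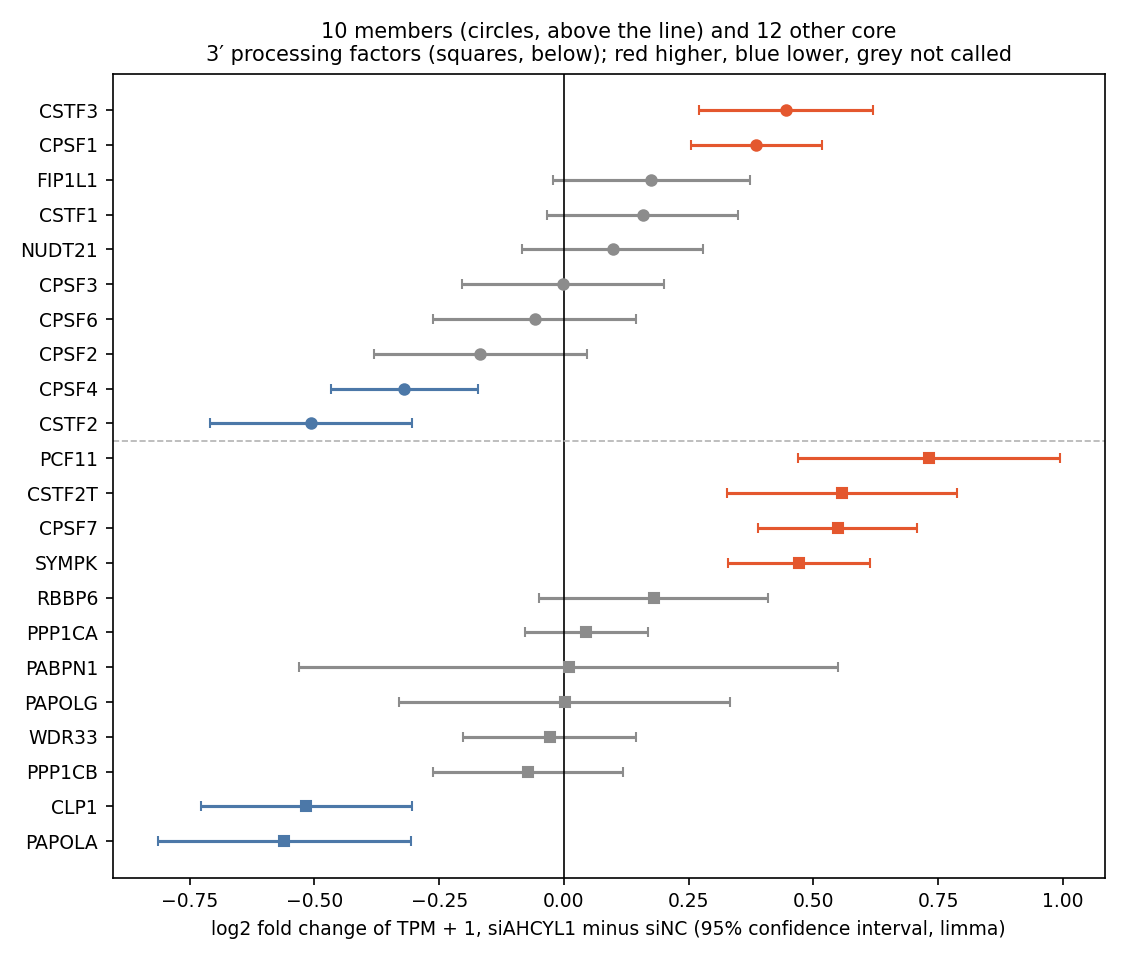
Log2 fold change of TPM + 1 (siAHCYL1 minus siNC, horizontal axis) with the 95% confidence interval from limma for the 10 members (circles) and 12 tested other core 3′ processing factors (squares), red where higher, blue where lower and grey where not called. CSTF3 and CPSF1 lie to the right of 0 and CPSF4 and CSTF2 to the left, and PCF11, CSTF2T, CPSF7 and SYMPK rose while CLP1 and PAPOLA fell.

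CSTF2 and CPSF6 each have a close expressed paralog, and the ratio of each to its paralog was lower in every siAHCYL1 library than in any control. CSTF2T, an intronless paralog of CSTF2 that can take its place in CSTF, had 19.20, 23.79 and 19.73 TPM in the controls and 30.84, 33.33 and 29.26 TPM after the AHCYL1 siRNA. It rose 1.49-fold (log2 fold change 0.56, SE 0.10, adjusted p = 0.00165) as CSTF2 fell. The ratio of CSTF2 to CSTF2T was 2.48, 2.03 and 2.07 in the controls and 1.04, 0.892 and 1.14 after the AHCYL1 siRNA, a difference of -1.10 in log2 ratio (exact permutation p = 0.1, two-sided). CSTF2T made up 31.5 ± 2.36% of the pair in the controls and 49.5 ± 3.08% after the AHCYL1 siRNA. The summed level of the pair was 66.82, 72.08 and 60.49 TPM against 62.98, 63.06 and 62.55 TPM, with overlapping groups (exact permutation p = 0.4). How RSEM divided reads between these similar sequences is not known here, so the split between them is uncertain. CSTF2T (chromosome 10, 51695487 to 51699591, minus strand) also lies within PRKG1 on the other strand, whose own level of 2.28 ± 0.15 in the controls and 1.48 ± 0.38 TPM in siAHCYL1 gave an adjusted p of 0.0684.

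CPSF7, the paralog of CPSF6 that can pair with NUDT21 in its place, had 52.45, 51.33 and 47.89 TPM in the controls and 77.49, 71.06 and 74.66 TPM after the AHCYL1 siRNA. It rose 1.47-fold (0.55, SE 0.071, adjusted p = 0.000205) while CPSF6 did not pass. CPSF7 made up 51.6 ± 0.35% of the pair in the controls and 62.0 ± 1.78% after the AHCYL1 siRNA, and the log2 ratio of CPSF6 to CPSF7 differed by -0.62 (exact permutation p = 0.1). The summed level of CPSF6 and CPSF7 was separate between groups, at 98.0 ± 4.92 and 120 ± 7.56 TPM (exact permutation p = 0.1). The sums and shares of both pairs were computed after their values were seen, whereas the ratios belong to a fixed set of 9.

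In all 9 subunit ratios the groups did not overlap, and each reached an exact permutation p of 0.1, the smallest that 3 libraries against 3 allow (0.1 after Benjamini-Hochberg adjustment over the 9). Among the ratios of every pair of tested genes above 0 in all libraries, 61.2% did not overlap. No ratio could therefore pass 0.05. A ratio within a library does not change when all its genes are scaled by the same factor, which quantile normalization does not do. CSTF3 to CSTF2 moved from 0.90, 0.776 and 0.953 to 1.73, 1.86 and 1.56, a log2 difference of 0.97. FIP1L1 to CPSF4 moved from 0.293, 0.291 and 0.276 to 0.465, 0.359 and 0.402 (0.50). The remaining ratios among members differed less: CSTF1 to CSTF3 by -0.29, CPSF3 to CPSF2 by 0.17 and NUDT21 to CPSF6 by 0.16. FIP1L1 to WDR33 differed by 0.21.

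**Figure D3:**
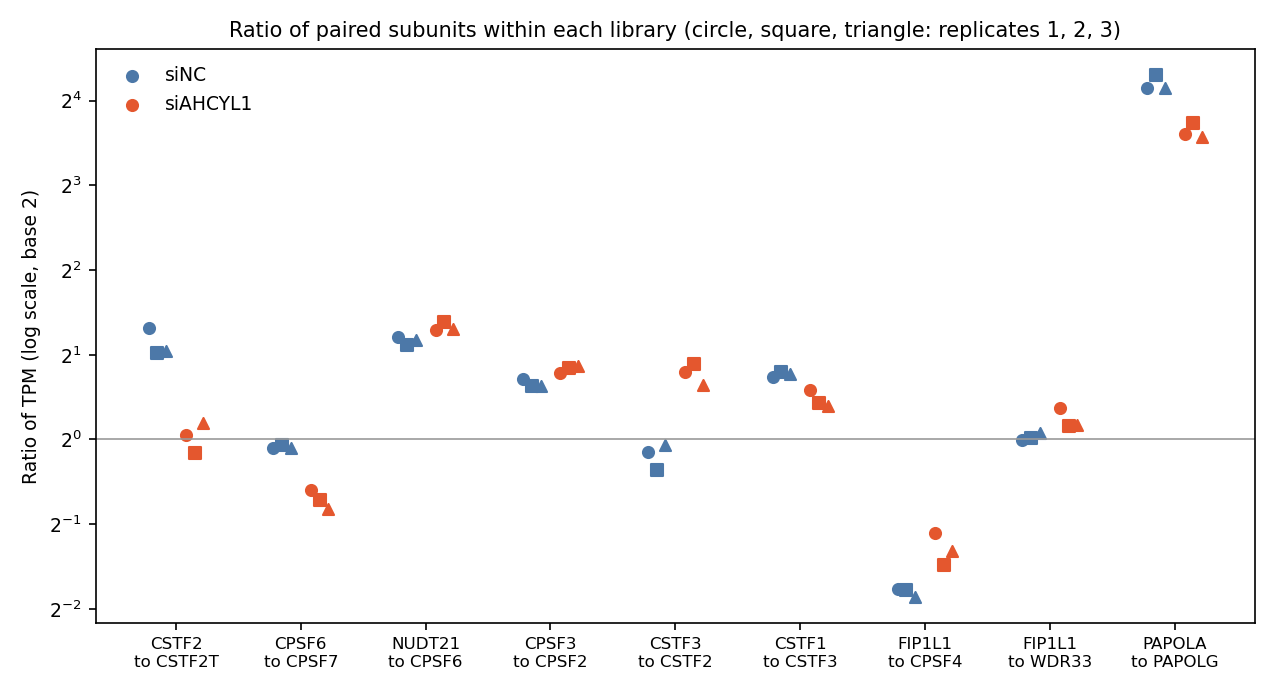
Ratio of TPM between paired subunits within each library (vertical axis, log scale of base 2), siNC in blue and siAHCYL1 in red, with replicates 1, 2 and 3 as circles, squares and triangles. The groups are apart in all 9 ratios, most widely for CSTF2 to CSTF2T (-1.10) and CSTF3 to CSTF2 (0.97) in log2 units.

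Beyond the members, 13 other core factors were listed and 12 were tested: 4 rose and 2 fell, 6 of 12 against 51.6% of all genes. CPSF4L was listed at 0 in 5 libraries and at 0.66 TPM in the sixth. Besides SYMPK, CPSF7 and CSTF2T, PCF11, which couples cleavage to transcription termination, rose from 12.1 ± 1.56 to 20.7 ± 1.74 TPM (0.73, adjusted p = 0.000713). CLP1, its partner in cleavage factor II, fell from 26.3 ± 0.77 to 18.1 ± 1.71 TPM (-0.52, adjusted p = 0.00153). PAPOLA, the main nuclear poly(A) polymerase, had 187.03, 168.86 and 154.93 TPM in the controls and 137.17, 102.90 and 107.25 TPM after the AHCYL1 siRNA, with no overlap (-0.56, SE 0.11, adjusted p = 0.00272). Its paralog PAPOLG had 9.28 ± 1.14 against 9.35 ± 1.77 TPM (adjusted p = 0.996), and the log2 ratio of PAPOLA to PAPOLG differed by -0.56 (exact permutation p = 0.1). RBBP6, which activates cleavage, had 48.3 ± 4.11 against 54.9 ± 6.89 TPM (adjusted p = 0.168). The phosphatase subunits PPP1CA (adjusted p = 0.519) and PPP1CB (adjusted p = 0.504) did not pass. PABPN1, the nuclear poly(A)-binding protein, had 74.39, 87.10 and 113.57 TPM against 59.03, 114.26 and 111.22 TPM (adjusted p = 0.975). It shares exons with the read-through gene BCL2L2-PABPN1, which was highest where PABPN1 was lowest in each group (101.46 TPM in siNC replicate 1 and 116.88 TPM in siAHCYL1 replicate 1), so its value is uncertain.

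A pair of 7-mers was looked up in the 3′ UTRs of GENCODE 29 as well. GTATGCA and TCGGAGA were taken from an earlier analysis of these libraries, where they went with lower and with higher fold changes, so their use here is not independent evidence. TCGGAGA was found in 296 tested genes, of which 44.9% were higher and 16.2% lower. Of the 11673 genes without it, 29.85% were higher and 22.57% lower. No member carries TCGGAGA, which says little, as its carriers are few. GTATGCA was found in the 3′ UTRs of 1135 tested genes, of which 37.3% were lower and 20.2% higher, against 20.9% and 31.3% of the 10834 genes without it. Of the 10 members only CPSF6 carries it, so none of the 4 changed members does. Among the other core factors it is found in WDR33 and PAPOLA. The CPSF6 and PAPOLA sites are shown on GRCh38 with the 7-mer in capitals, since 1 of these carriers did not pass the test (log2 fold change -0.06) and the other fell (-0.56):
CPSF6, chr12:69273299-69273328, plus strand: gcattcactgaGTATGCAgctactatggtt
PAPOLA, chr14:96565882-96565911, plus strand: tctttttgcttGTATGCAcaaggtaggact
The part of this 7-mer in the values of PAPOLA was not tested.

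The neighbouring machineries were described by their counts, beside 51.6% of all genes called, 30.4% higher and 21.2% lower. Of 13 Integrator genes, 5 rose and 1 fell (46.2% called, median log2 fold change 0.25), and of 11 genes of histone pre-mRNA end processing, 1 rose and 5 fell (54.5%, median -0.19). The Integrator split became 4 and 2 under median-of-ratios scaling and 3 and 3 under quantile normalization. Of 17 termination factors 1 rose and 5 fell (35.3%, median -0.05), and of 23 regulators of poly(A) site choice 3 rose and 7 fell (43.5%, median -0.12), which became 3 and 13 under quantile normalization and 3 and 4 without siNC replicate 2. The Integrator calls were 3 and 0 without siNC replicate 2 or without siAHCYL1 replicate 2, and the termination calls 4 and 6 without siNC replicate 1. CPSF3L, the table's name for INTS11, is the Integrator nuclease and a paralog of CPSF3. It rose from 64.5 ± 1.35 to 79.4 ± 2.61 TPM (0.30, adjusted p = 0.00396), while CPSF3 did not pass.

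**Figure D4:**
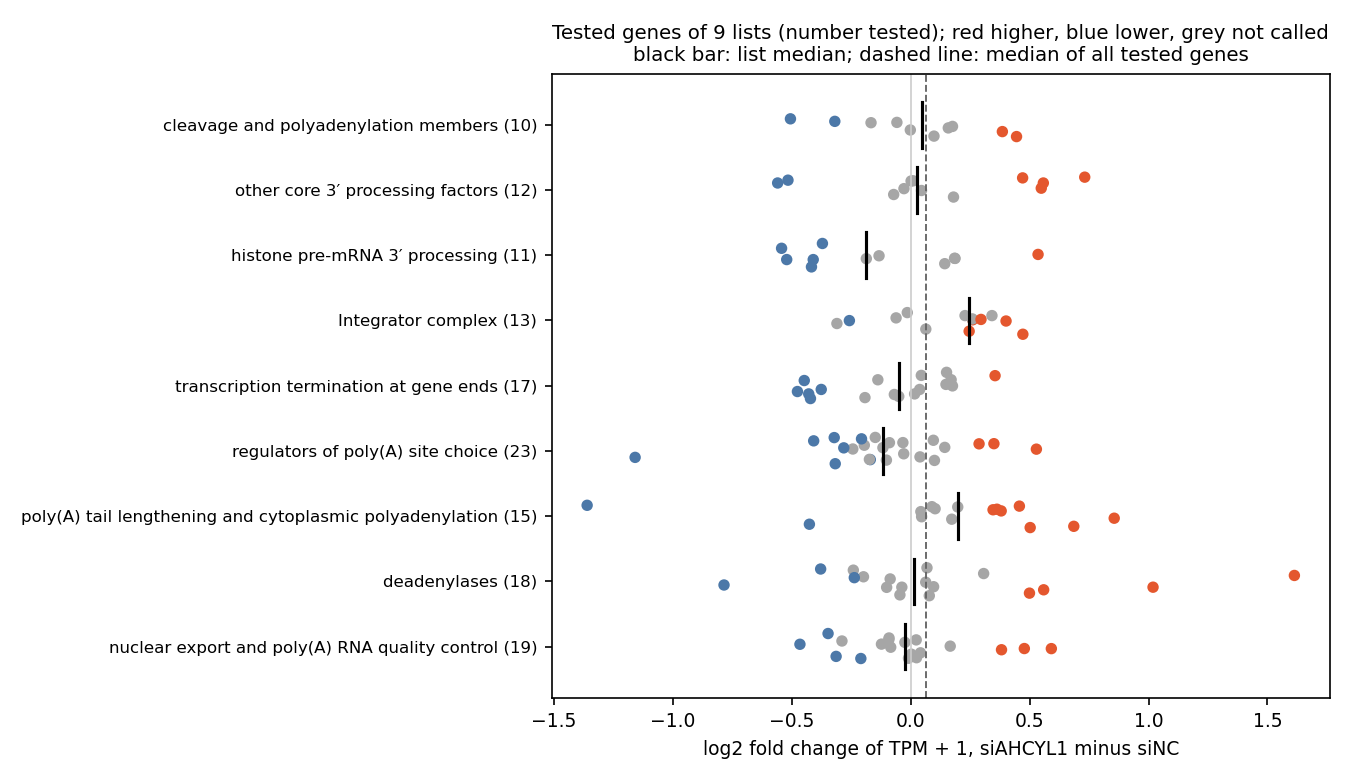
Log2 fold change of TPM + 1 (siAHCYL1 minus siNC, horizontal axis) of each tested gene in 9 lists, red where higher, blue where lower and grey where not called, with list medians as black bars. The members run from -0.51 to 0.44 around a median of 0.05, near the dashed line at the median of all genes (0.06).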

How the data were processed

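RNA-seq was done on 6 libraries of HMCB cells, 3 per siRNA, made without strand information per the labels' protocols. The authors deposited 1 table of TPM per gene symbol. The aligner STAR, the quantifier RSEM and build GRCh38 are named, per the submitters' processing notes, with no version, and the annotation is not given in the sources used here. Column sums ran from 999999.43 to 1000000.21, so depth is unknown. Between 13035 and 13189 genes reached 1 TPM per library.

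For the group comparison, limma 3.58.1 (R 4.3.3) was run on log2(TPM + 1) with an intensity trend, two-sided, and Benjamini-Hochberg adjustment over 13266 genes that reached 1 TPM in 3 or more libraries. Fold changes on this scale understate those of low genes. Subunit ratios were tested with exact permutation over libraries. The fitting code was tested on simulated data. The rule for named genes took all members, AHCYL1, the genes of the 9 ratios, the other core factors, and from each further list up to 4 called genes by adjusted p and the called gene most against its list. The members and lists were chosen with earlier results of these data known. Of 142 list entries, 139 were found, 11 under an older symbol. Alternatives were another pseudocount, other filters, 2 other scalings, a replicate block, robust moderation with no trend, and leaving out each library. Sequences came from GENCODE release 29 and RefSeq.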

Additional observations from a re-analysis of the deposited data

How the results depend on the processing

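The table keeps no read depth, and no limit from depth can be given. The fit without replicate 1 of both groups was chosen after seeing the data. The count of changed genes was 6844, from 6055 (filter at 5 TPM, fewer genes tested) to 7919 (replicate block) across settings, and from 5566 to 6725 with 1 library left out. The count of changed members was 4 and became 5 under both other scalings, without siAHCYL1 replicate 1 and without replicate 1 of both groups, and 6 with the replicate block. CPSF1, CSTF3, CPSF4 and CSTF2 kept call and direction in all 14 refits. AHCYL1 ranged from -3.54 to -3.38. Of 140 refits of single members, 134 stayed on their side of the threshold, 6 passed newly (CPSF2 in 5 and CSTF1 in 1), and 5 changed sign while passing in neither fit. Among the 54 tested genes that the rule for named genes took, 10 of 754 refits lost a call and 0 reversed one. All 10 were of INTS5 or INTS8 (limma adjusted p from 0.0517 to 0.113). For these changes of call the cause was not tested. No subunit ratio moved by more than the spread between replicates with a pseudocount of 1. Nor did any with 1 library left out, but that step cannot move a ratio past this spread. It is therefore no check of the ratios. Deviations from the group mean correlated between same-numbered libraries at 0.23, 0.0009 and 0.15. Some libraries were closer to another number than to their own, and the replicate numbers were not taken to pair the samples. With the replicate block 7919 genes changed, and CPSF2 (adjusted p = 0.0427), CSTF1 (0.0425) and RBBP6 (0.0236) passed; Integrator calls became 8 higher and 2 lower, and termination calls 4 and 7.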

Other observations

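Genes that shorten and lengthen poly(A) tails after the complex has added them moved in both directions. Of 18 tested deadenylase genes, 4 rose and 3 fell (38.9% called against 51.6% of all genes). PAN2, the catalytic subunit of the PAN2-PAN3 deadenylase, had 5.75, 5.93 and 6.16 TPM in the controls and 21.52, 20.08 and 19.20 TPM after the AHCYL1 siRNA, a 3.41-fold rise (log2 fold change 1.61, SE 0.099, adjusted p = 2.93e-06). PAN3, its partner, fell from 17.3 ± 0.55 to 9.65 ± 1.06 TPM (-0.79, adjusted p = 0.000257). BTG2 (1.02) and TOB2 (0.56), adaptors that recruit the CCR4-NOT deadenylase, rose. Their paralogs BTG1 (-0.24, limma adjusted p = 0.0355) and TOB1 (-0.38, adjusted p = 0.00707), outside the rule for named genes, fell. Of 15 genes of tail lengthening and cytoplasmic polyadenylation, 7 rose and 2 fell (60.0% called). CPEB2, which binds cytoplasmic polyadenylation elements, rose from 5.71 ± 0.45 to 11.2 ± 1.29 TPM (0.86), and its paralog CPEB4 fell from 5.27 ± 0.70 to 1.45 ± 0.38 TPM (-1.36). CPEB4 and PAN3 carry the 7-mer GTATGCA in a 3′ UTR, and CPEB2 and PAN2 do not. Of the genes searched in the same lists, CNOT1 (-0.10) and ZC3H14 (0.17) also carry it and were not called. The 7 tail lengthening genes found under an older symbol, FAM46C among them, were not searched for it. As said above, the 7-mer was taken from an earlier analysis of these libraries, where it went with lower fold changes. Its presence in genes that fell is therefore not independent evidence, and its part in these values was not tested. PABPC4, a cytoplasmic poly(A)-binding protein, rose from 145 ± 10.2 to 206 ± 4.21 TPM (0.50), and FAM46C, the poly(A) polymerase TENT5C, rose (0.69).

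In the lists next to the complex, MBNL2, an RNA-binding regulator of splicing and poly(A) site choice, had 31.23, 31.85 and 31.58 TPM in the controls and 15.13, 14.02 and 11.77 TPM after the AHCYL1 siRNA (log2 fold change -1.16, adjusted p = 2.24e-05). Its paralog MBNL3 rose from 5.89 ± 0.83 to 8.94 ± 1.26 TPM (0.53). CELF1 (0.35) and HNRNPA1 (0.29), whose many processed pseudogenes make its value uncertain, rose, and SNRPC, a U1 snRNP protein, fell (-0.28). In histone pre-mRNA processing, SLBP, the stem-loop binding protein, rose from 121 ± 7.82 to 175 ± 9.59 TPM (0.54), while LSM11 of the U7 snRNP (-0.54) and the Sm proteins SNRPE (-0.52) and SNRPF (-0.41) fell. Among termination factors, WDR82 (-0.45), SUPT4H1 (-0.42), SCAF8 (-0.43) and RPRD1A (-0.48) fell and RPRD2 rose (0.35). In Integrator, VWA9 (INTS14, 0.47), INTS10 (0.40) and INTS5 (0.26) rose and INTS8 fell (-0.26). Of 19 export and RNA quality control genes 3 rose and 4 fell (36.8% called against 51.6% of all genes), with THOC7 (0.48) and RBM7 (0.59) up and THOC3 (-0.47) and EXOSC2 (-0.35) down. The highest limma adjusted p among the genes called higher or lower in this section was 0.0355, for BTG1.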
